A study of Equus caballus with 6 samples.

Results

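The intermediate interzone of the fetal horse hindlimb was compared with transient embryonic cartilage of the same stage, with 1 array for each region out of 6 arrays in the series. Both regions came from hindlimbs at gestational day 40, and their cells were cut from frozen sections of 10 µm by laser capture microdissection, in which a laser frees chosen cells from a section under the microscope. The members were the samples whose titles name these regions. A probe counted as measured when the scanner software marked it as well above background on both arrays, which held for 13618 of 43603 probes and, after naming, for 4373 of 13737 genes. Levels of the outer interzone of the same stage, also 1 array, are given beside them. Together with 3 arrays of articular cartilage from horses aged 15 years, it entered the scaling and the choice of each gene's reported probe. Breed, sex and number of animals are not given in the sources used here, nor is it stated whether one limb or several gave the cells of a region. Each region rests on 1 array, so differences are given by size, without any test.

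The interzone is the band of flattened, closely packed cells that appears between neighbouring cartilage models at the site of a future joint. Its cells turn away from the chondrocyte programme, and descendants of cells that expressed GDF5, a growth factor of the bone morphogenetic protein family, form articular cartilage, synovium and ligaments inside the joint. Transient embryonic cartilage makes the model of the bone: its chondrocytes, directed by the transcription factor SOX9, secrete type II collagen, aggrecan and matrilins, and the tissue is later replaced by bone.

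The regions were checked with 4 genes that mark them, each read by probes of 60 bases. PRG4 encodes lubricin, the lubricant of joint surfaces, and MATN1 encodes matrilin 1, a protein of non-articular cartilage; ACAN encodes aggrecan, the large proteoglycan of cartilage. The probes are shown because they carry the check of the regions. Capitals mark the 56 bases that all 5 probes of a gene share: PRG4 and MATN1 were each tiled in steps of 1 base, so their 5 probes are near repeats of 1 measurement. GDF5 had a single probe, and for ACAN the probe at position 5998 of the transcript is shown. Sequences are those of the scanner files.

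PRG4 (start 108): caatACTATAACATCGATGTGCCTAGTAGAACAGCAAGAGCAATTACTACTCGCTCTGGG
GDF5 (start 1380): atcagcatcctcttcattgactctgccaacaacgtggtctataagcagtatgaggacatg
MATN1 (start 1301): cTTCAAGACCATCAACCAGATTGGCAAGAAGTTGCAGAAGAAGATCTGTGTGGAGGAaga
ACAN (start 5998): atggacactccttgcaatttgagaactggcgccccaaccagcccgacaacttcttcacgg

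PRG4 reached a processed signal of 34900 on the intermediate interzone array and 45400 on that of the outer interzone, against 77.6 in embryonic cartilage. The processed signal is the spot brightness after the software's background subtraction. Signals printed in the text are unscaled. Before any difference was taken, they were scaled by the 75th percentile of each array (2400 for intermediate interzone, 4390 for outer interzone, 4270 for embryonic cartilage). On that scale PRG4 was 800.2-fold higher in intermediate interzone (9.64 ± 0.21 on the log2 scale, where the error is the software's spot error for 1 array each), and its 5 probes ranged from 769-fold to 998-fold. Both interzone arrays were high and embryonic cartilage was low. After scaling, PRG4 stood at 3.86 in intermediate and 3.37 in outer interzone on the log2 scale, the reverse order of the unscaled signals.

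GDF5 gave 642 and 422 on the intermediate and outer interzone arrays and was not well above background in embryonic cartilage, where its signal was 1.93. Its level was at least 122-fold higher in intermediate interzone. Such a bound sets the bright level against the higher of the probe's own signal and the lowest signal well above background on the dim array.

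MATN1 ran the other way, with 13.3 in intermediate interzone, 128 in outer interzone and 9510 in embryonic cartilage. It was 402-fold lower in intermediate interzone (-8.65 ± 0.29), and its 5 probes ranged from 316-fold to 421-fold. ACAN gave 67.2, 551 and 15600 in the same order and was 130-fold lower at the reported probe (-7.03 ± 0.21). A second ACAN probe, the one shown, gave 435, 819 and 9530 and was 12.3-fold lower. Another ACAN probe, at position 1178, was dim throughout, with 4.35 and 4.27 on the interzone arrays, not above background, and 14.4 in embryonic cartilage. The direction of ACAN was the same at the 2 probes measured on both arrays, and its size was not. The outer interzone lay between the other regions for MATN1 and for these 2 ACAN probes. At the ACAN probe shown, however, the interzone layers were nearly level after scaling (-2.46 in intermediate and -2.42 in outer interzone). All 4 genes went with the label of their region.

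**Figure D1:**
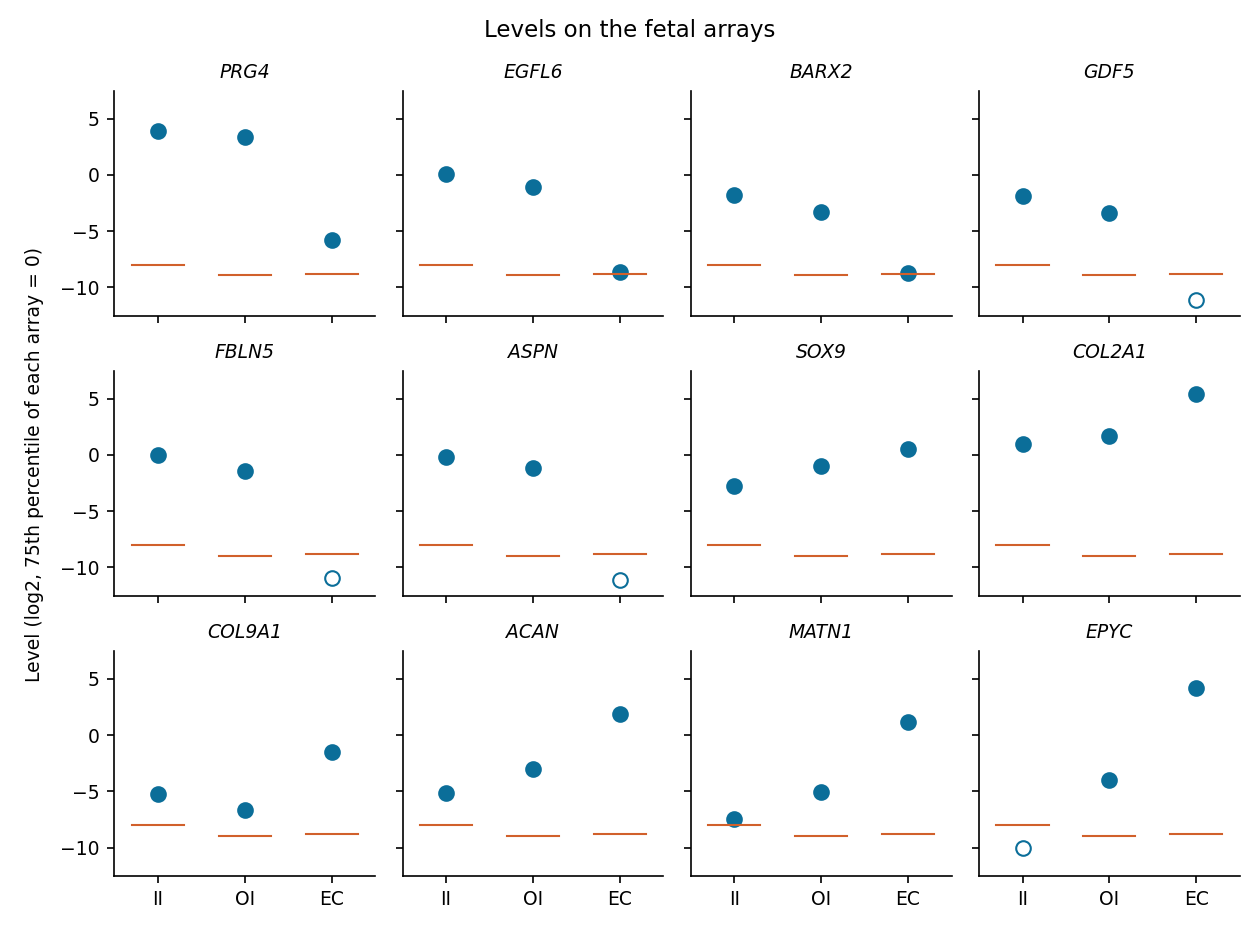
Levels of 12 genes on the 3 fetal arrays (II, intermediate interzone; OI, outer interzone; EC, transient embryonic cartilage) on the log2 scale, with each array's 75th percentile at 0. Filled circles are well above background, open circles are not, and the orange bar is the lowest level well above background on that array; EGFL6 and BARX2 lie close to it in EC and MATN1 in II, while GDF5, FBLN5 and ASPN fall below it in EC and EPYC in II.

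Fewer probes were above background in intermediate interzone than in the other fetal regions. They were 36.9% of all probes, against 43.3% in outer interzone and 44.6% in embryonic cartilage. All 3 fetal arrays lay on the same slide and no spot was saturated. The number of arrays limits the precision. Each array read the pooled RNA of the captured cells, so fewer cells of a type and less RNA per cell cannot be told apart.

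Of the 4373 genes measured on both arrays, 659 (15.1%) were at least 4-fold higher in intermediate interzone and 294 (6.72%) at least 4-fold lower. At 2-fold the shares were 32.6% higher and 17.9% lower, and 49.5% lay within 2-fold. The median over all genes was 0.36, so a list must be read against that value rather than against 0. The split depends on the scaling. Higher genes made up 69.2% of the 4-fold calls here, 44.4% with scaling to the median of probes above background on all arrays, 46.8% with scaling to ubiquitous genes and 89.1% after normexp background correction. Beyond these, 805 named genes (5.86% of all) were above background in intermediate interzone only and 1891 (13.8%) in embryonic cartilage only.

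**Figure D2:**
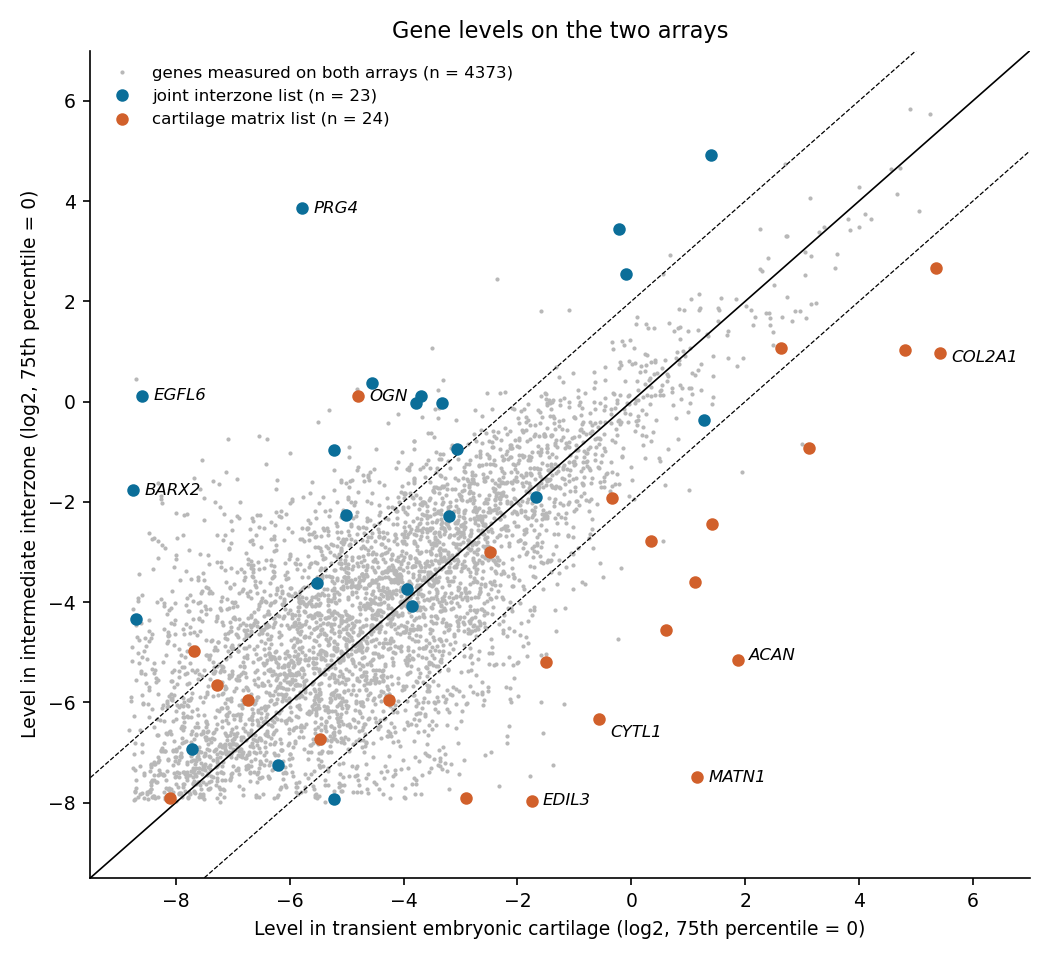
Level of each of 4373 genes in embryonic cartilage (x axis) and intermediate interzone (y axis), log2 with each array's 75th percentile at 0. The solid line marks equal levels and the dashed lines a 4-fold difference; most of the 23 interzone genes (blue) lie above the solid line and most of the 24 cartilage matrix genes (orange) below it.

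Genes linked to the joint interzone were mostly higher in intermediate interzone. Of 55 genes listed, 49 had a probe and 23 were measured on both arrays. Among the 23, 15 exceeded a 2-fold excess in intermediate interzone (65.2%, against 32.6% of all measured genes). A 2-fold deficit was found for 3 (13%, against 17.9%) and neither for 5. The median of the 23 was 2.76, against 0.36 for all genes. Of the 49, a further 9 were above background in intermediate interzone only, 4 in embryonic cartilage only and 13 in neither. The shares over all named genes were 5.86% in intermediate interzone only and 13.8% in embryonic cartilage only. The list was drawn up with earlier results of these arrays known, so its direction is no independent evidence.

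Among its secreted signals, SFRP2, a modulator of WNT signalling, gave 26100, 26300 and 3660 in intermediate interzone, outer interzone and embryonic cartilage and was 12.7-fold higher in intermediate interzone. FGF18, a fibroblast growth factor that acts on chondrocytes, gave 323, 74.3 and 7.79 and was at least 61.5-fold higher. DKK3, of the dickkopf family, was at least 19.4-fold higher. All 3 were brighter in intermediate interzone than in embryonic cartilage, and DKK3 was brighter still in outer interzone (295 against 102). GDF6, WNT9A, WNT16, CHRD, NOG, PTHLH and CHRDL1, signals and antagonists known from the joint, were above background on neither array, and WNT4 was above background in embryonic cartilage only, at least 3.72-fold lower in intermediate interzone.

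Among its transcription factors, BARX2, a homeobox factor, gave 703, 441 and 9.91 and was 126-fold higher. The odd-skipped factors OSR1 and OSR2 were 20.4-fold and 14.0-fold higher; OSR2 had signals of 2600, 2620 and 331. Both interzone arrays were high for OSR2, with like signals before scaling by 2400 in intermediate and 4390 in outer interzone. JUN was 6.29-fold higher and KLF4 3.75-fold, while ERG, an ETS factor of the joint, was 1.91-fold higher with 496, 1010 and 463. BARX1 was at least 14.6-fold higher. GLI3, a mediator of hedgehog signalling, was 6.49-fold lower, from a signal of 9.87 near background in intermediate interzone, and its sign turned after normexp correction.

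Among its matrix and surface genes, EGFL6, a secreted protein with EGF-like repeats, gave 2600, 2090 and 11.1 and was 417-fold higher. CRABP1, which binds retinoic acid in the cytoplasm, gave 3110, 1770 and 181 and was 30.6-fold higher. SULF1 and SULF2, which remove sulfate from heparan chains outside the cell, were 9.82-fold and 19.2-fold higher, and SULF2 gave 1230, 3060 and 114. The 2 probes of SULF1 gave 1.91 and 3.30. ABI3BP was 13.4-fold higher and COL3A1, the chain of type III collagen, 11.4-fold, with 72700, 91900 and 11300; its 2 probes gave 3.52 and 5.86. CD44, the hyaluronan receptor, was at least 19.4-fold higher and decorin (DCN), a small proteoglycan, at least 50.2-fold. TNC, tenascin C, was 3.11-fold lower, and VCAM1 and GJA1 lay within 2-fold (0.20 and -0.23). HAS2, a hyaluronan synthase, was above background in embryonic cartilage only.

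**Figure D3:**
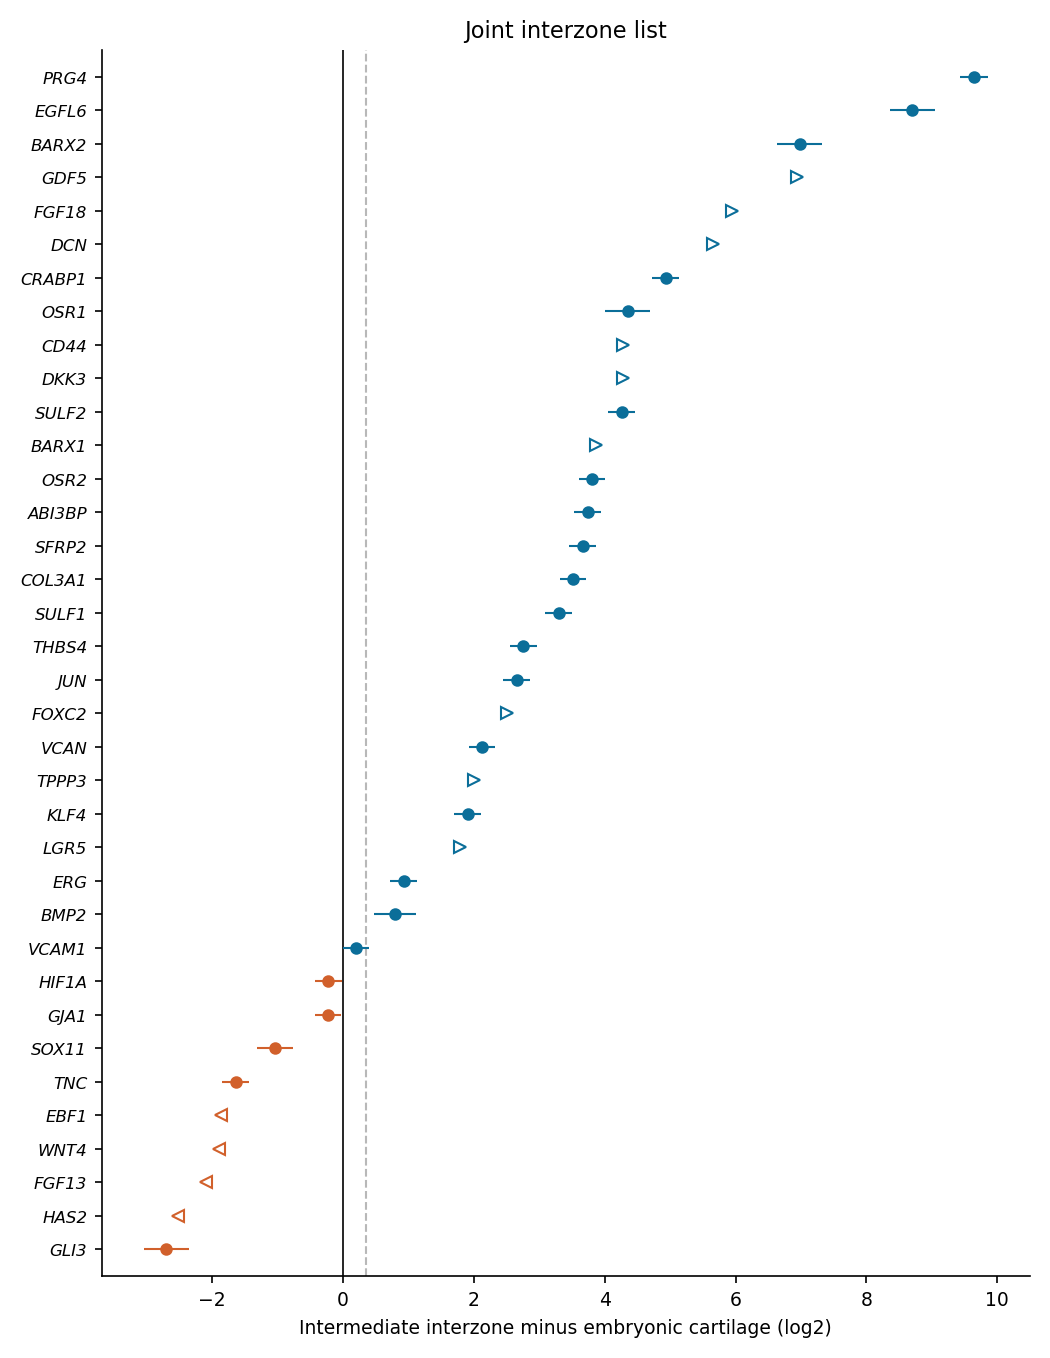
Difference between intermediate interzone and embryonic cartilage (log2, x axis) for each joint interzone gene. Filled circles with bars are measured genes with their spot error, open triangles are bounds pointing away from 0, blue is higher and orange lower in intermediate interzone, and the dashed line is the median of all genes at 0.36; PRG4 and EGFL6 lie farthest to the right.

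Cartilage matrix genes were mostly lower in intermediate interzone. Of 41 listed, 39 had a probe and 24 were measured. Among these, 18 showed a 2-fold deficit or more (75%, against 17.9% of all measured genes). An excess of that size was found for 3 (12.5%, against 32.6%) and neither for 3, and the median of the 24 was -3.41. Of the 39, another 9 were above background in embryonic cartilage only, none in intermediate interzone only, and 6 in neither. The shares over all named genes were 13.8% in embryonic cartilage only and 5.86% in intermediate interzone only.

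All 6 measured collagens of the list were at least 2-fold lower, against 17.9% of all genes. COL2A1, the chain of type II collagen, gave 4710, 14100 and 183000 in intermediate interzone, outer interzone and embryonic cartilage and was 21.8-fold lower in intermediate interzone (-4.45, 5 probes from -4.45 to -4.20). The signal of 4710 shows that its transcript was well above background in intermediate interzone as well. COL11A1 was 16.6-fold lower, COL27A1 26.2-fold, and the type IX chains COL9A1, COL9A2 and COL9A3 were 13.1-fold, 6.39-fold and 13.7-fold lower, with the 6 probes of COL9A3 spread from -7.04 to -3.55. The minor chain COL11A2 was above background in embryonic cartilage and outer interzone but not in intermediate interzone, at least 156-fold lower. COL10A1, the collagen of hypertrophic chondrocytes, was above background on neither array.

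EPYC, epiphycan, a small leucine-rich proteoglycan of growth cartilage, had the largest bound of all genes. Its signal was 76700 in embryonic cartilage, 282 in outer interzone and 2.26, not above background, in intermediate interzone, at least 4666-fold lower. HAPLN1, which links aggrecan to hyaluronan, gave 1400 in embryonic cartilage and was above background in neither interzone layer, at least 85.2-fold lower in intermediate interzone. CHAD, chondroadherin, was likewise above background only in embryonic cartilage among the fetal arrays (1720), at least 105-fold lower. The proteoglycans were not all lower: OGN, osteoglycin, gave 2590, 3170 and 153 and was 30.1-fold higher, and FMOD, fibromodulin, was 6.6-fold higher.

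MATN3, a further matrilin, gave 2.00, 103 and 7700 and was at least 468-fold lower, and MATN4 at least 80.3-fold lower. CYTL1, a cytokine-like protein of chondrocytes, gave 29.6, 2730 and 2890 and was 54.9-fold lower in intermediate interzone. For CYTL1 the outer interzone and embryonic cartilage were both high and only intermediate interzone was low, unlike MATN1 and EPYC. CNMD, chondromodulin, an inhibitor of vessel growth, was 35.9-fold lower, EDIL3 74.0-fold lower, PCOLCE2 32.2-fold lower and COMP 14.5-fold lower. CILP2, MATN2 and CLEC3A lay within 2-fold, and CILP and UCMA were above background on neither array.

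**Figure D4:**
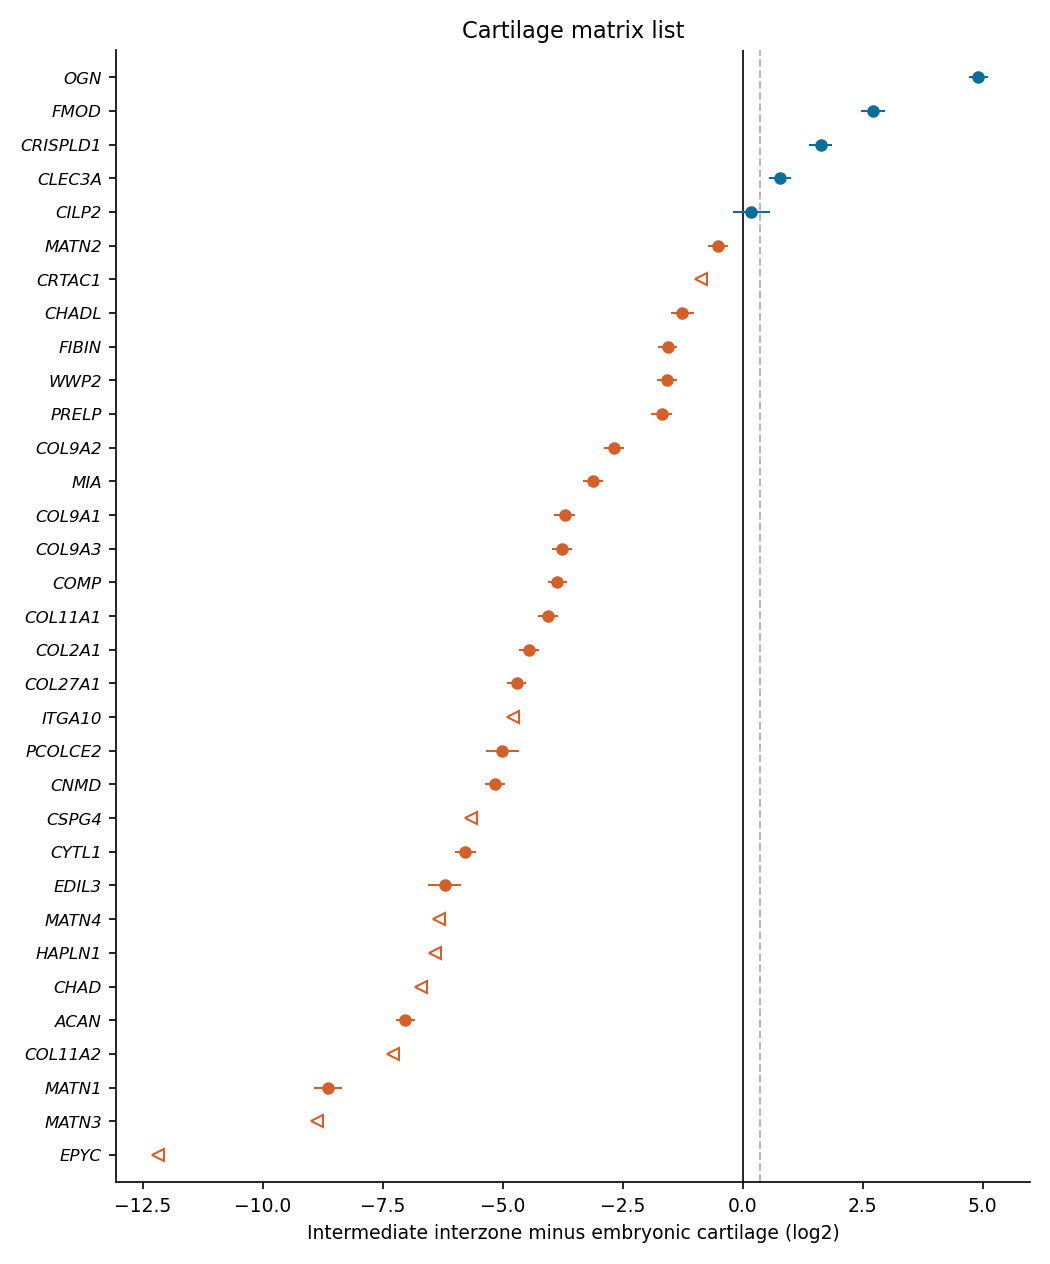
Difference between intermediate interzone and embryonic cartilage (log2, x axis) for each cartilage matrix gene, with filled circles for measured genes and their spot error and open triangles for bounds. The dashed line is the median of all genes at 0.36; OGN and FMOD stand to the right, and EPYC lies farthest to the left.

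The largest differences over all genes were partly outside these lists. After PRG4, the genes with the largest measured excess in intermediate interzone were CACNB3, a subunit of voltage-gated calcium channels (3270, 791 and 10.3; 565-fold), EGFL6, BARX2 and AADAT, an enzyme of tryptophan breakdown (103-fold). WNT11, a WNT ligand, gave 1070, 543 and 23 and was 82.8-fold higher, and PDGFC, a platelet-derived growth factor, gave 1440, 2880 and 31.4 and was 81.6-fold higher. GOSR2 and CSNK1D, genes of general cell functions, were 83.1-fold and 79.0-fold higher, and both were dim in outer interzone (33.4 and 40.1). SELENOP, a selenium carrier, SVEP1, a large adhesion protein, and PROM1, prominin 1, were 74.1-fold, 71.3-fold and 57.8-fold higher. Signals of these genes in embryonic cartilage lay between 9.91 and 77.6, where the lowest signal well above background was 9.35.

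The largest measured deficits after MATN1 and ACAN were EDIL3, THBS1, CYTL1, UCP2 and SSR1. In intermediate interzone EDIL3, THBS1, UCP2 and SSR1 gave 9.64, 15.7, 13.6 and 11.8, where the lowest signal well above background was 9.24. THBS1, thrombospondin 1, gave 15.7, 147 and 1640 and was 58.7-fold lower. UCP2, a mitochondrial carrier, was 51.7-fold lower, and SSR1 and FKBP14, which serve protein entry into and folding in the endoplasmic reticulum, were 40.6-fold and 33.0-fold lower. EBP, an enzyme of cholesterol synthesis, was 29.1-fold lower. For THBS1, CYTL1, UCP2, SSR1, FKBP14 and EBP the unscaled outer interzone signal lay above that of intermediate interzone, with 51.3 for FKBP14 and 457 for UCP2. EDIL3 was the exception, with 9.64 in intermediate interzone, 1.83 and not above background in outer interzone, and 1270 in embryonic cartilage. After scaling, FKBP14 was nearly level in the interzone layers, at -6.60 in intermediate and -6.42 in outer interzone on the log2 scale.

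Among genes above background in intermediate interzone but not in embryonic cartilage, the largest bounds were those of FBLN5, fibulin 5, an organiser of elastic fibres (at least 455-fold), ASPN, asporin (398-fold), JAM2, a junctional adhesion molecule (280-fold), PTPRZ1 (278-fold), CCDC80 (211-fold), LRRN1 (158-fold), BMP4 (154-fold) and PTPN6 (150-fold). All 8 were well above background in outer interzone as well; FBLN5 gave 2390 and 1630 on the interzone arrays and ASPN 2090 and 1970. In the other direction, after EPYC and MATN3, the largest were P4HA3, a prolyl hydroxylase of collagen (158-fold), COL11A2, CSGALNACT1, which starts chondroitin chains (141-fold), UCK2 (115-fold), CHAD and KCTD4 (102-fold).

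Of 15 measured regulators of chondrocytes, 5 had a 2-fold excess (33.3%, against 32.6% of all measured genes), 5 a 2-fold deficit (33.3%, against 17.9%) and 5 neither. Their median was 0.41, near that of all genes. Of 44 with a probe, a further 11 were above background in embryonic cartilage only, against 13.8% of all named genes. In intermediate interzone only there were 3, against 5.86%. SOX9, the factor that drives the chondrocyte programme, gave 350, 2270 and 6310 and was 10.1-fold lower in intermediate interzone. SOX9 was lowest in intermediate interzone, higher in outer interzone and highest in embryonic cartilage. DLX5, a homeobox factor of maturing chondrocytes, was at least 60.3-fold lower, and RUNX2, which drives hypertrophy and bone formation, and IHH, the hedgehog signal of growth cartilage, were above background in embryonic cartilage only (at least 5.94-fold and 3.16-fold lower). NFATC1 gave 767, 290 and 28.2 and was 48.4-fold higher. The hedgehog co-receptors BOC and CDON were 10.9-fold and at least 34.8-fold higher, whereas the hedgehog target PTCH1 was 2.57-fold lower and turned sign after normexp correction. GLI1, the other classic target, was lower at its reported probe (-1.29) and higher by 2.89 at its other probe. FGFR3 and PTH1R, receptors of growth cartilage, lay within 2-fold (0.46 and -0.24).

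In the list of tendon, ligament and perichondrium genes, 11 of 16 measured members had a 2-fold excess (68.8%, against 32.6% of all genes) and 1 a deficit (median 2.00); 7 more were above background in intermediate interzone only and 1 in embryonic cartilage only. MKX, a homeobox factor of tendon, gave 359, 211 and 12.5 and was 51.1-fold higher. MFAP4 was 14.1-fold higher, THBS4 6.75-fold and COL12A1 5.61-fold, and DPT, dermatopontin, was at least 94.2-fold higher. CTHRC1 gave 1340, 8530 and 34200 and was 14.3-fold lower. SCX and TNMD, defining genes of tendon, were above background on neither array.

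Among collagens outside the cartilage group, 7 of 15 measured had a 2-fold excess (46.7%, against 32.6% of all genes) and 3 a deficit (20.0%, against 17.9%), with 3 more above background in intermediate interzone only and 3 in embryonic cartilage only. COL6A3 gave 13000, 17200 and 828 and was 27.9-fold higher. COL4A1 and COL4A2, the chains of basement membrane collagen, were at least 42.8-fold and 65.5-fold higher. COL1A2, a chain of type I collagen, gave 59500, 75100 and 101000 and differed by 0.07, within its spot error of 0.20, although its 9 probes reached 0.62. COL15A1 was 4.35-fold lower. Of the small leucine-rich proteoglycans, 5 of 7 measured had a 2-fold excess (71.4%, against 32.6% of all genes) and 2 a deficit (28.6%, against 17.9%). Another 3, ASPN and DCN among them, were above background in intermediate interzone only, and 4, among them EPYC, CHAD and OPTC (at least 8.15-fold lower), in embryonic cartilage only. Besides OGN and FMOD, PODN was 24.5-fold and BGN, biglycan, 5.69-fold higher, while LUM, lumican, was 2.58-fold lower at the reported probe (6 probes from -1.37 to 0.09).

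**Figure D5:**
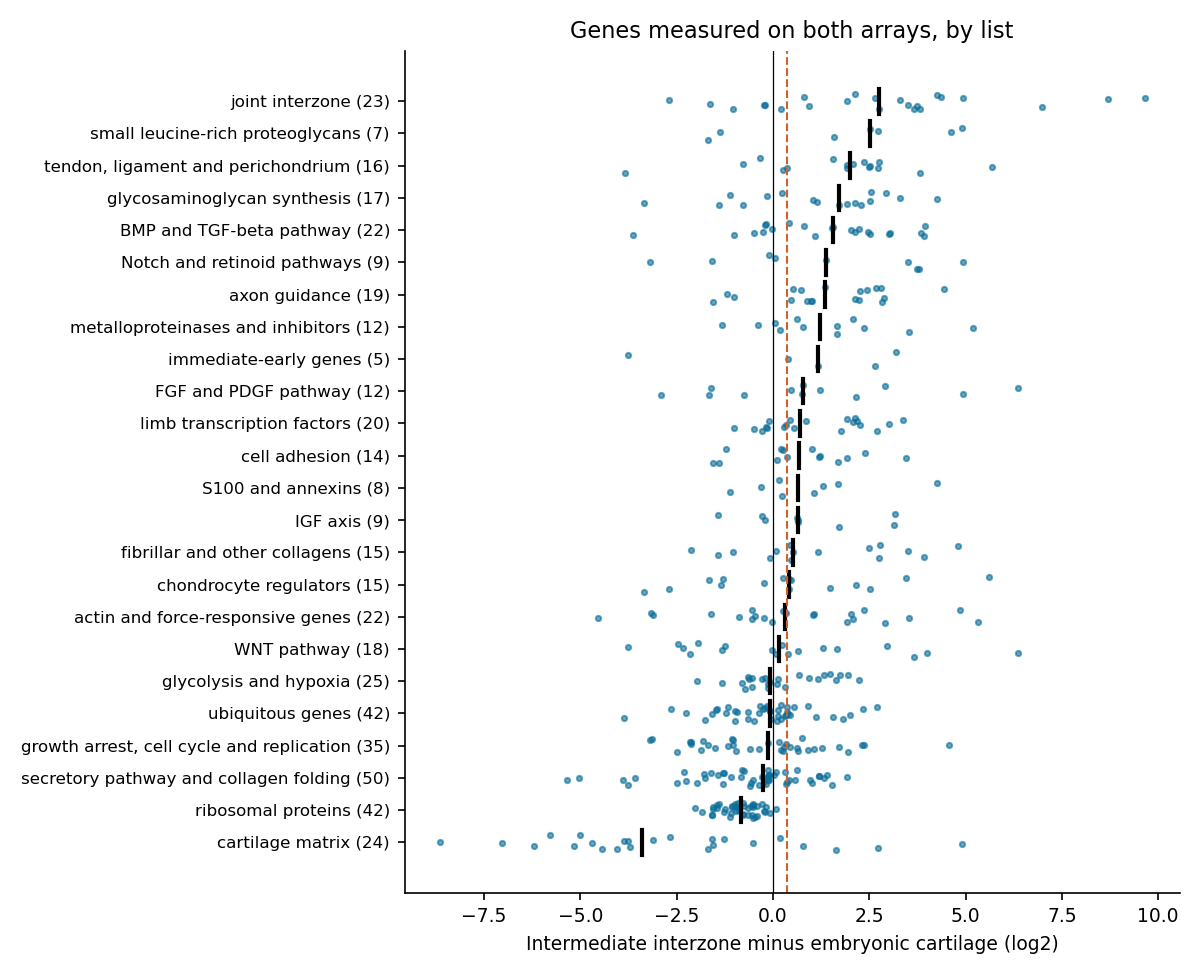
Differences between intermediate interzone and embryonic cartilage (log2, x axis) of the measured genes in each list, 1 point per gene, with the number measured in brackets and the list's median as a black bar. The dashed line is the median of all genes at 0.36; the joint interzone list has the highest median, 2.76, and the cartilage matrix list the lowest, -3.41.

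In the BMP and TGF-beta pathway, which patterns cartilage and joints, 13 of 22 measured genes had a 2-fold excess in intermediate interzone (59.1%, against 32.6% of all genes). A deficit was found for 2 (9.09%, against 17.9%), and the median was 1.55. Another 8 were above background in intermediate interzone only and 7 in embryonic cartilage only. Among ligands, GDF7 gave 128, 98.3 and 14.9 and was 15.3-fold higher, and TGFB2 gave 1780, 4580 and 221 and was 14.3-fold higher. GDF10 ran the other way, at least 28.9-fold lower. Among inhibitors, follistatin (FST) gave 559 and 413 on the interzone arrays and 1.91, not above background, in embryonic cartilage, at least 106-fold higher, and LTBP1, which stores TGF-beta in the matrix, was 8.12-fold higher. SMOC2 was 12.5-fold lower and SOSTDC1 at least 14.4-fold lower. The inhibitory SMAD7 was 8.19-fold higher. Target genes were divided: ID3 was 15.0-fold higher, ID1 differed by -0.20 and ID2 by -1.01. No receptor of the list was measured on both arrays.

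Of 18 measured WNT pathway genes, 6 had a 2-fold excess (33.3%, against 32.6% of all genes) and 7 a deficit (38.9%, against 17.9%), with a median of 0.15; 4 more were above background in intermediate interzone only and 8 in embryonic cartilage only. Of the ligands and R-spondins only WNT11 was measured on both arrays. WNT7B was above background in intermediate interzone only, and 4, WNT4 among them, in embryonic cartilage only. SFRP1, a secreted inhibitor, was at least 40.0-fold lower, the opposite of SFRP2, and FRZB, an inhibitor known from cartilage, was 5.53-fold lower with a signal of 12.3 in intermediate interzone and turned sign after normexp correction. CTNNB1, beta-catenin, differed by -0.03. MYC was 13.7-fold lower, from a signal of 12.8 near background in intermediate interzone.

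Among fibroblast and platelet-derived growth factors, FGF10 gave 772, 41.4 and 1.89 and was at least 147-fold higher, with intermediate interzone far above outer interzone. PDGFRA, the receptor for PDGFC, gave 203, 24.3 and 2.00 and was at least 38.6-fold higher. Among the other receptors FGFR1 was 4.48-fold higher, whereas FGFR2 was 3.15-fold lower and FGFR4 3.04-fold lower, the last with a sign that turned after normexp correction. The vascular growth factor VEGFB gave 40.7, 249 and 548 and was 7.57-fold lower, and VEGFA was at least 9.37-fold lower. SPRY1 and SPRY2, feedback inhibitors of FGF signalling, were 30.8-fold and 7.56-fold higher. Over the list, 5 of 12 measured genes had a 2-fold excess (41.7%, against 32.6% of all genes) and 3 a deficit (25%, against 17.9%), and 5 more were above background in intermediate interzone only and 6 in embryonic cartilage only.

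In the Notch and retinoid lists, 5 of 9 measured genes had a 2-fold excess (55.6%, against 32.6% of all genes) and 2 a deficit (22.2%, against 17.9%). Another 4 were above background in embryonic cartilage only and none in intermediate interzone only. NOTCH2, a Notch receptor, and RBP4, which carries retinol, were at least 12.8-fold and 8.15-fold lower. CRABP2, which carries retinoic acid, gave 3230, 2330 and 434 and was 13.2-fold higher, beside CRABP1, and HES1, a Notch target, was 11.3-fold higher. JAG1, a Notch ligand, was 9.09-fold lower, although its outer interzone signal of 230 exceeded the 173 of embryonic cartilage. Of the insulin-like growth factor axis, 3 of 9 measured genes had a 2-fold excess (33.3%, against 32.6% of all genes) and 1 a deficit; 1 more was above background in intermediate interzone only and 4 in embryonic cartilage only. PAPPA, a protease that cleaves the binding proteins, was at least 12.3-fold lower. The binding proteins IGFBP5 and IGFBP3 were 9.05-fold and 8.81-fold higher (6 probes of IGFBP5 from 0.84 to 3.35). IGF2 lay within 2-fold at the reported probe with 8730, 11200 and 9840, although its 3 probes ran from 0.66 to 1.68.

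Among limb transcription factors, 9 of 20 measured had a 2-fold excess (45%, against 32.6% of all genes) and 1 a deficit (5%, against 17.9%), around a median of 0.69. Another 9 were above background in intermediate interzone only and 8 in embryonic cartilage only. PRRX1, a factor of limb mesenchyme, gave 1930, 3140 and 333 and was 10.3-fold higher, and EMX2 was at least 150-fold higher, with 787, 883 and 1.93. PITX1, which sets hindlimb identity, was above background in embryonic cartilage and not in intermediate interzone, at least 10.5-fold lower. MEIS2 and PRRX2, further factors of limb mesenchyme, were 7.99-fold and 6.47-fold higher. Of 12 measured HOX genes, 5 had a 2-fold excess (41.7%, against 32.6% of all genes), among them HOXC4 (4.77-fold), HOXD1 (4.55-fold) and HOXB9 (4.39-fold). HOXC9 was 2.01-fold lower. The TBX4 gene of the hindlimb was above background on neither of the compared arrays, with 118 in outer interzone.

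Genes that build and carry glycosaminoglycans went both ways. Of 17 measured, 11 had a 2-fold excess (64.7%, against 32.6% of all genes) and 3 a deficit (17.6%, against 17.9%), around a median of 1.72. However, of 55 with a probe, 17 more were above background in embryonic cartilage only, against 13.8% of all named genes. In intermediate interzone only there were 3, against 5.86%. UGDH, which makes the sugar precursor, gave 1.94, 438 and 784 and was at least 47.7-fold lower, and GPC3, glypican 3, was 10.3-fold lower with 902, 2530 and 16500. HSPG2, perlecan, was at least 35.8-fold lower. GPC4, another glypican, was 5.79-fold higher and CHST12, a chondroitin sulfotransferase, 4.86-fold higher.

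In the secretory pathway and collagen folding list, 17 of 50 measured genes had a 2-fold deficit (34%, against 17.9% of all genes). An excess was found for 7 (14%, against 32.6%) and neither for 26, around a median of -0.27. Another 7 were above background in embryonic cartilage only and none in intermediate interzone only. Among 20 transport genes 10 had a 2-fold deficit (50%). SPCS1, of the signal peptidase, was 14.9-fold lower, SDF2L1 13.5-fold lower and the disulfide isomerase PDIA4 at least 53.4-fold lower, while HSPA5 and CALR, abundant chaperones, differed by 0.09 and 0.03.

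Of the metalloproteinases and their inhibitors, 6 of 12 measured had a 2-fold excess (50%, against 32.6% of all genes) and 1 a deficit (8.33%, against 17.9%). Another 3 were above background in intermediate interzone only and 5 in embryonic cartilage only. ADAMTS12 was at least 12.1-fold lower. TIMP2 was 36.9-fold higher with 377, 1340 and 18.2, although its 6 probes ranged from 0.94 to 5.67. MMP2 was 5.12-fold higher at the reported probe (2.36 on the log2 scale) and differed by only 0.07 on that scale at its other probe. MMP13, MMP9 and ADAMTS4, enzymes that break down cartilage, were above background on neither array. In the adhesion list 7 of 14 measured had a 2-fold excess (50%, against 32.6% of all genes) and 3 a deficit (21.4%, against 17.9%). Of 49 with a probe, another 7 were above background in intermediate interzone only, against 5.86% of all named genes. In embryonic cartilage only there were 7, against 13.8%. ITGA5, an integrin that binds fibronectin, was 5.26-fold higher, and CDH11, a cadherin of mesenchyme, was 3.78-fold higher. ITGB1 differed by 0.11 at the reported probe, although its 5 probes ran from -1.76 to 0.11. JAM2 and ITGA1 were above background in intermediate interzone only, and ITGA10, a collagen receptor of chondrocytes, in embryonic cartilage only (454; at least 27.6-fold lower).

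Of 22 measured genes of contraction and force response, 10 had a 2-fold excess (45.5%, against 32.6% of all genes) and 4 a deficit (18.2%, against 17.9%). Another 3 were above background in intermediate interzone only and 2 in embryonic cartilage only. CALD1, caldesmon, gave 603, 251 and 26.8 and was 40.0-fold higher, MYH9 was 28.9-fold higher and TAGLN at least 50.2-fold higher. Of the calcium-permeable channels that sense force, PIEZO2 was 5.1-fold higher. PIEZO1 was 23.2-fold lower, from a signal of 11.3 near background in intermediate interzone. Among axon guidance genes, 11 of 19 measured had a 2-fold excess (57.9%, against 32.6% of all genes) and 3 a deficit (15.8%, against 17.9%), around a median of 1.34. Another 4 were above background in intermediate interzone only and 7 in embryonic cartilage only. SEMA6A, a semaphorin, was 21.9-fold higher, the ephrin EFNB2 7.4-fold and the receptor ROBO2 7.17-fold, while SEMA3C was 2.28-fold lower and the receptor EPHA4 at least 9.55-fold lower.

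Mitosis genes were lower in intermediate interzone in most cases. Of 15 measured, 10 had a 2-fold deficit (66.7%, against 17.9% of all genes) and 1 an excess (6.67%, against 32.6%), with a median of -1.17. Of 23 with a probe, another 8 were above background in embryonic cartilage only, against 13.8% of all named genes, and none in intermediate interzone only. CDC20 gave 65.8, 213 and 1070 and was 9.14-fold lower, and BUB1 and TOP2A were at least 39.8-fold and 27-fold lower. CCNB1 was 8.80-fold lower, from a signal of 12.2 near background in intermediate interzone. For CDC20, BUB1 and TOP2A the outer interzone lay between the others. Replication genes were divided, with a 2-fold excess for 3 of 12 measured (25%, against 32.6% of all genes) and a deficit for 3 (25%, against 17.9%). Another 2 were above background in intermediate interzone only and 5 in embryonic cartilage only. GAS2, a growth arrest gene, gave 5040, 5160 and 379 and was 23.7-fold higher.

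Of 25 measured glycolysis and hypoxia genes, 16 lay within 2-fold, with a median of -0.07 over the list. A 2-fold excess was found for 7 (28%, against 32.6% of all genes) and a deficit for 2 (8%, against 17.9%). HK2 was 4.68-fold higher and ENO1 3.95-fold lower. Another 6 were above background in intermediate interzone only and 3 in embryonic cartilage only, and some of these bounds were large. The phosphofructokinase PFKP gave 477 in intermediate interzone, was not above background in the other fetal regions and was at least 90.8-fold higher. ANGPTL4, NDRG1 and the lactate carrier SLC16A3 were at least 41.9-fold, 36.9-fold and 16.5-fold higher, and VEGFA ran the other way. Of 42 measured ribosomal protein genes, 15 had a 2-fold deficit (35.7%, against 17.9% of all genes), 27 neither and none an excess (against 32.6%). The median was -0.84, with a range of -1.39 to -0.66 over the alternatives. Ubiquitous genes had a median of -0.07 over 42 genes, of which 27 lay within 2-fold. Among S100 proteins, S100A6 was 19.2-fold higher, while S100B, found in chondrocytes and Schwann cells, gave 832 in embryonic cartilage and was not above background in either interzone layer. FOS, an immediate-early gene, was 9.16-fold higher.

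Markers of other cell types were examined because dissected tissue can hold vessels, muscle or nerve. Endothelial markers were above background for 4 of 13 genes in each region, and their summed level, in units of each array's 75th percentile, was 0.437 in intermediate interzone and 0.195 in embryonic cartilage; PECAM1, CDH5, KDR and VWF were above background on neither array, and PLVAP was 9.63-fold higher in intermediate interzone. Of 16 immune cell markers, 6 were above background in each region. Their summed level without PTPRC was 0.325 in intermediate interzone and 0.0962 in embryonic cartilage; AIF1, of macrophages, was 9.91-fold higher and CD14, CD74, C1QA and CD3E were above background on neither array. PTPRC was left out of that sum because 9 of its 14 probes were above background on neither array while 5 were bright. Haemoglobin beta (HBB) was 4.94-fold higher in intermediate interzone, where blood markers summed to 0.209 against 0.0497.

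Muscle markers summed to 0.700 and 0.526, with 7 and 11 of 21 genes above background in intermediate interzone and embryonic cartilage. Of 6 measured on both arrays, 2 had a 2-fold excess in intermediate interzone (33.3%, against 32.6% of all genes) and none a deficit. Above background on 1 array only were 1 in intermediate interzone and 5, DES (desmin) among them, in embryonic cartilage. MYOD1, MYH3 and TTN were above background on neither array. Nerve and Schwann cell markers summed to 0.625 and 0.850, with 3 and 7 of 15 genes above background in intermediate interzone and embryonic cartilage. SOX10 was above background on neither array. Epithelial, bone and adipocyte markers had 1 to 4 genes above background in each region. Of 3 bone markers measured on both arrays, 1 had a 2-fold excess in intermediate interzone (3.08 on the log2 scale) and none a deficit. A further bone marker was above background in intermediate interzone only and 1 in embryonic cartilage only. IBSP and SP7 of bone and ADIPOQ of fat were above background on neither array. The part of vessel, immune and blood cells in the differences of COL4A1, COL4A2 and other genes was not tested.

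Probes of a gene did not always agree. For 704 genes the measured probes overlapped one another and had a median SD of 0.17 on the log2 scale, and for 734 genes with separately placed probes the median SD was 0.37. Of 144 genes of the latter kind that were at least 4-fold apart, every probe was on the same side for 131. For 15 genes the probes disagreed by 2-fold or more in each direction; the widest was ALDH18A1, whose probes ran from -4.33 to 3.35, and ATOSA, ANAPC13 and ARHGEF40 were among the others. The reported direction of ANAPC13 and ARHGEF40 turned in at least 1 alternative.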

How the data were processed

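Cells were laser-captured, and their RNA was extracted with RNeasy Micro and amplified with SuperAmp, a global PCR of cDNA, per the labels. Then 250 ng of Cy3-labelled cDNA was hybridised for 17 h at 65 °C. The authors deposited 1 scanner file per array, and per the file headers Feature Extraction 10.7.3.1 made its intensity values, background-subtracted and linear. The value table the authors deposited holds a ratio, the same signal over each array's median, found by a log2 correlation of 1 with the scanner values. The files hold 45220 spots per array, while the labels name an array format of another size.

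The 1417 control spots and all outlier spots were left out, and spots of a probe were averaged. Signals on the log2 scale were reduced by each array's 75th percentile over the 1765 probes that passed the background flag on all 6 arrays. Probes were named by the gene numbers, symbols, names and accessions in the files, through a RefSeq gene table (assembly TB-T2T, for names alone); 19545 had no name. Each gene is represented by its probe of highest mean level over the 6 arrays; where that probe missed the flag on a compared array, by its brightest probe above background for a bound. Names in the text follow a rule: the 4 markers, the 12 largest differences and 8 largest bounds in each direction, per list up to 6 members and 4 bounds in each direction, 3 members within 2-fold and members above background on neither array, and 4 genes with disagreeing probes; some genes under this rule are not reported here. OSR2, KLF4, ABI3BP, BARX1, COL2A1, COL11A1, COL9A1, COL9A2, COL9A3, HAPLN1, MATN4 and COMP fall outside it and were chosen after their values were seen. The members and all 32 lists (1218 genes, 1015 with a probe) were chosen with earlier results of these data known. Spot errors and the spread between probes leave out variation between animals, dissections and amplifications. The scripts were tested on simulated data. Python 3.11.15, numpy 2.4.6, pandas 2.3.3, statsmodels 0.14.6, R 4.3.3 and limma 3.58.1 (normexp, offset 50) were used, and 14 alternatives were computed.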

Additional observations from a re-analysis of the deposited data

How the results depend on the processing

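No paired analysis was possible because each region has 1 array. Dim signals limit these results: 36.9% of probes were above background in intermediate interzone. In 14 alternatives the median over all genes shifted by -0.55 to 0.45, so list medians are compared with it. Of 26 list medians, 17 stayed on the same side of the all-gene median in every setting computed, and 9 changed side in some setting. Joint interzone (0.61 to 2.69 above it) and cartilage matrix (-4.53 to -3.30 from it) were among the 17. The cause of changes was not tested, and the number of genes measured also differed between settings.

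At 4-fold, the 659 higher and 294 lower genes became 409 and 512 with scaling to the median of probes above background on all arrays, 427 and 486 with scaling to ubiquitous genes, 343 and 42 after normexp, 1714 and 1639 with no filter on dim probes, 382 and 128 with the stricter filter, and 1425 and 783 at 2-fold. Bounds of at least 4-fold, 572 higher and 724 lower, became 245 and 30 after normexp, and the lower ones 420 with quantile normalization. Normexp moved the medians of cartilage matrix to -2.50 and small leucine-rich proteoglycans to 1.66. No filter moved joint interzone to 1.38, small leucine-rich proteoglycans to 1.16, glycosaminoglycan synthesis to 0.72 and growth arrest, cell cycle and replication to -1.04. The stricter filter moved collagens to 1.83, FGF and PDGF to -0.15, Notch and retinoid to 3.61 and limb factors to 1.84.

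Of 432 named genes, 21 of those at least 2-fold apart turned sign somewhere. After normexp these were ARHGEF40 (-0.66), GLI3 (0.14), SOX11 (0.68), PTCH1 (0.30), GLI1 (2.62), COL18A1 (0.32), COL13A1 (0.60), FRZB (0.16), DVL2 (0.43), LRP6 (0.028), FGFR4 (0.070), CNTN1 (0.57), SLIT3 (0.40), AURKA (0.33), ERO1A (0.36), ANXA4 (0.65) and PPARG (0.071). With the mean over probes ANAPC13 was -1.72 and GLI1 0.80. With the reported probe chosen on the 2 compared arrays GLI1 was 2.89, PLOD2 -0.28 and EEF2 -0.86, and with no filter ITGA9 was 0.27. Sizes changed more often than signs. After normexp, 175 of the 432 moved by 0.83 or more, against 92 with quantile normalization and 103 with no filter. In an alternative JAG1 shrank to -0.20, and the bounds of OPTC, EPHA4, RBP4, PITX1 and VEGFA to -0.014, -0.15, -0.18, -0.29 and -0.29. A bound therefore holds for the main processing only.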
